A study of Mus musculus with 19 samples.

Results

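Most of the genes described here encode the machinery of mitosis and cytokinesis, the division of the chromosomes and then of the cell. Pif1, a DNA helicase, is counted among the members under a role of its own. The list holds 46 mouse genes chosen by name, but with earlier results of these data known. Shares of the members set beside those of all genes are therefore descriptions and not tests. All 46 were found among the 13549 genes of the embryonic liver table and among the 17606 genes of the tumour libraries. The study made mouse models for fibrolamellar carcinoma, a cancer of the liver that carries a fusion of DNAJB1 with PRKACA, the catalytic subunit of protein kinase A. In the first experiment, livers of embryos at day 18.5 of gestation (E18.5) were compared between 5 animals with the genotype label control and 4 animals that overexpressed the fusion. The fusion embryos carried a DNAJB1-PKA and GFP cassette in the Rosa26 locus behind a stop that Cre removes, and Cre came from an albumin promoter that is active in liver from mid-gestation. The labels give the controls no further genotype. In the second experiment, cells of the mouse line FL8 were embedded in gelatin capsules and grown under the skin of NSG mice, which are immunodeficient and lack lymphocytes but keep macrophages, vessels and connective tissue. When tumours averaged 75 mm3 the mice were randomized to palbociclib, which inhibits the G1 kinases CDK4 and CDK6, or to vehicle (5 tumours each). Palbociclib was given by mouth at 75 mg/kg on 3 days in a row and followed by 4 days off. The tumour labels name the control agent a methylcellulose carrier, while the series text names PBS. FL8 is 1 line, and all tumours share it.

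A cell that enters mitosis activates Cdk1 with its B-type cyclins, condenses its chromosomes and builds a bipolar spindle from microtubules. Kinetochores attach the chromosomes to the spindle, and the spindle checkpoint holds the anaphase-promoting complex back until every chromosome is attached. The cleavage furrow is then placed by the central spindle and by signals through RhoA. Most of these genes are transcribed in late S, G2 and M phase under the DREAM and MuvB complexes with B-Myb and FoxM1, so their RNA is abundant in tissue with many dividing cells. Palbociclib acts earlier, in G1, where CDK4 and CDK6 phosphorylate Rb. Fetal liver holds dividing hepatoblasts and, in large numbers, dividing blood cell precursors. In whole tissue, fewer dividing cells and less RNA per dividing cell cannot be told apart.

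The promoters of the genes are shown first, because a short element named CHR, the landing site of MuvB, is the sequence feature these genes are known to share. RefSeq promoters of build GRCm38.p6, each from 250 bases before to 50 bases after the annotated start, were at hand for 38 of the 46 genes (40 promoters). The 4 shown are written 5′ to 3′ on the strand of the gene. They belong to Kif20b, which had the smallest p of all members in embryonic liver, Top2a, which had the smallest p in tumours among members with a CHR match in the table, and Cdk1 and Ccnb1, the kinase and the cyclin that drive entry into mitosis. Capitals mark CHR matches (TTTGAA or TTTAAA, with TTCAAA on the other strand) and CCAAT boxes (CCAAT, or ATTGG on the other strand). Kif20b lies at chr19:34922108-34922407 on the plus strand. The other 3 lie on the minus strand: Top2a at chr11:99024140-99024439, Cdk1 at chr10:69352863-69353162 and Ccnb1 at chr13:100786437-100786736.
Kif20b: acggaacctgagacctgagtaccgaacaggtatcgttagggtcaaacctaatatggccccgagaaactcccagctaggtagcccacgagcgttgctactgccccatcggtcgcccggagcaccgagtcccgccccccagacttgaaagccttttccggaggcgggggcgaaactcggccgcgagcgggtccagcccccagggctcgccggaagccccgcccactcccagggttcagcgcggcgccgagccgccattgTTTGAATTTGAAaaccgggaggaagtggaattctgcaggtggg
Top2a: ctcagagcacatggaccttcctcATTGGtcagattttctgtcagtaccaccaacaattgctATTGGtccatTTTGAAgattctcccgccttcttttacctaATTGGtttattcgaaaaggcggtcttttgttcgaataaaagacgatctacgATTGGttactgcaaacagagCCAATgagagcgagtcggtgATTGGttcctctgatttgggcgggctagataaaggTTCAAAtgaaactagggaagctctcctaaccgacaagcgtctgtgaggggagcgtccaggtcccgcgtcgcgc
Cdk1: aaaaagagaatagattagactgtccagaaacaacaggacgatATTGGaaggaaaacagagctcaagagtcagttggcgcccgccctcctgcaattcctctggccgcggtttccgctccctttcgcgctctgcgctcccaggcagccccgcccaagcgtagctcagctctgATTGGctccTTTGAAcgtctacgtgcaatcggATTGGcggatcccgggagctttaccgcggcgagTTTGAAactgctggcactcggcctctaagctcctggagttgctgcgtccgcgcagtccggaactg
Ccnb1: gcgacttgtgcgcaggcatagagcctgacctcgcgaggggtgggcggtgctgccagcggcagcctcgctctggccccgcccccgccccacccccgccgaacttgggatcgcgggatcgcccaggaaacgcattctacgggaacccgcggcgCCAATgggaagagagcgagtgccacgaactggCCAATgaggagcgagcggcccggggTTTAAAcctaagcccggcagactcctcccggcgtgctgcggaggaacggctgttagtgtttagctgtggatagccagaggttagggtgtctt
In Kif20b the 2 CHR matches stand side by side, 7 and 13 bases after the start, and the window holds 0 CCAAT boxes. Top2a has 6 CCAAT boxes and CHR matches 179 and 23 bases before the start (positions -179 and -23). Cdk1 has 3 CCAAT boxes with CHR matches at -71 and -15, and Ccnb1 has 2 CCAAT boxes with 1 CHR match at -42. A CHR match was present in 36 of the 40 member promoters (90.0%) against 9062 of 32851 promoters in the whole table (27.6%). The 4 genes whose window held none of these letters were Nusap1, Bub1, Mad2l1 and Nuf2. A CCAAT box was present in 31 of 40 member promoters (77.5%) against 37.4% of all promoters, and both elements together in 30 (75.0%) against 10.7%. A CHR match that began within 50 bases of the start was found in 32 of 40 (80.0%) against 8.28%. E2F forms (TTGGCGC or TTCCCGC or TTGCCGC or TTCGCGC, on both strands, the first of which can share letters with ATTGG) were found in 8 of 40 (20%) against 9.57%. A match is a description of the letters in the window and not a measured site. Ccna2, Cdc25c, Foxm1, Tpx2, Aurkb, Incenp, Kif20a and Pif1 were not in the promoter table.

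Libraries differed in ways that touch these genes. The embryo libraries held 7660736 to 45591301 counts and the tumour libraries 2955729 to 43141761, with vehicle 5 the smallest. Prkaca, whose sequence is in the fusion, was at 36.3 to 50.5 CPM (counts scaled to a library total of 1000000) in controls. It was at 52.0 to 114 CPM in fusion livers, without overlap (log2 fold change 0.78 ± 0.22 SE, adjusted p = 0.0379 in edgeR). Fusion 9, at 52.0 CPM, lay just above control 2, at 50.5 CPM. Dnajb1, the other partner gene, was at 41.7 to 52.9 CPM in controls and 51.7 to 74.3 CPM in fusion livers, with overlap through fusion 9. Its log2 fold change was 0.42 ± 0.13 (SE; adjusted p = 0.0493 in edgeR). Both genes went the way of the labels, weakly in fusion 9. In controls 1 and 2 and fusions 8 and 9, 7.81% to 8.46% of all counts fell on ribosomal protein genes, and in the other 5 embryo libraries 5.42% to 6.77%. The female transcript Xist was at 168 to 473 CPM in controls 1 and 2 and fusions 6 to 8, and at 0.547 CPM or less in the other 4 embryos. Among tumours, the mitochondrial share of reads was 46.6% in vehicle 1 and 1.24% to 6.47% elsewhere. Hepatocyte genes were abundant in all 19 libraries, with a summed level of 15 listed markers of at least 186013 CPM in every embryo (14 in the table) and 42393 to 136020 CPM in tumours.

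The comparison of fusion with control livers asks whether the fusion kinase alters these genes in the fetal liver. Of the 46 members, 5 rose in fusion livers and 0 fell by edgeR's quasi-likelihood test with adjustment over all 13316 genes tested. The 5 were the cytokinesis genes Kif20b and Ect2, the checkpoint genes Bub1 and Mad2l1, and the cyclin Ccnb1. They make 10.9% of the members, where 5.99% of all genes tested rose and 6.81% fell. The median log2 fold change of the members was 0.22, against -0.01 for all genes, and 35 of the 46 fold changes were positive. Without adjustment, 15 members (32.6%) had p under 0.05 in edgeR, all higher, where 13.9% of all genes tested were higher at that level. The range ran from -0.24 for Pif1 to 0.76 for Ect2. In 6 members (13.0%) every fusion liver lay above every control: Ccnb1, Ccnb2, Kif15, Mad2l1, Kif20b and Ect2. The same was true of 8.37% of all genes tested.

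**Figure D1:**
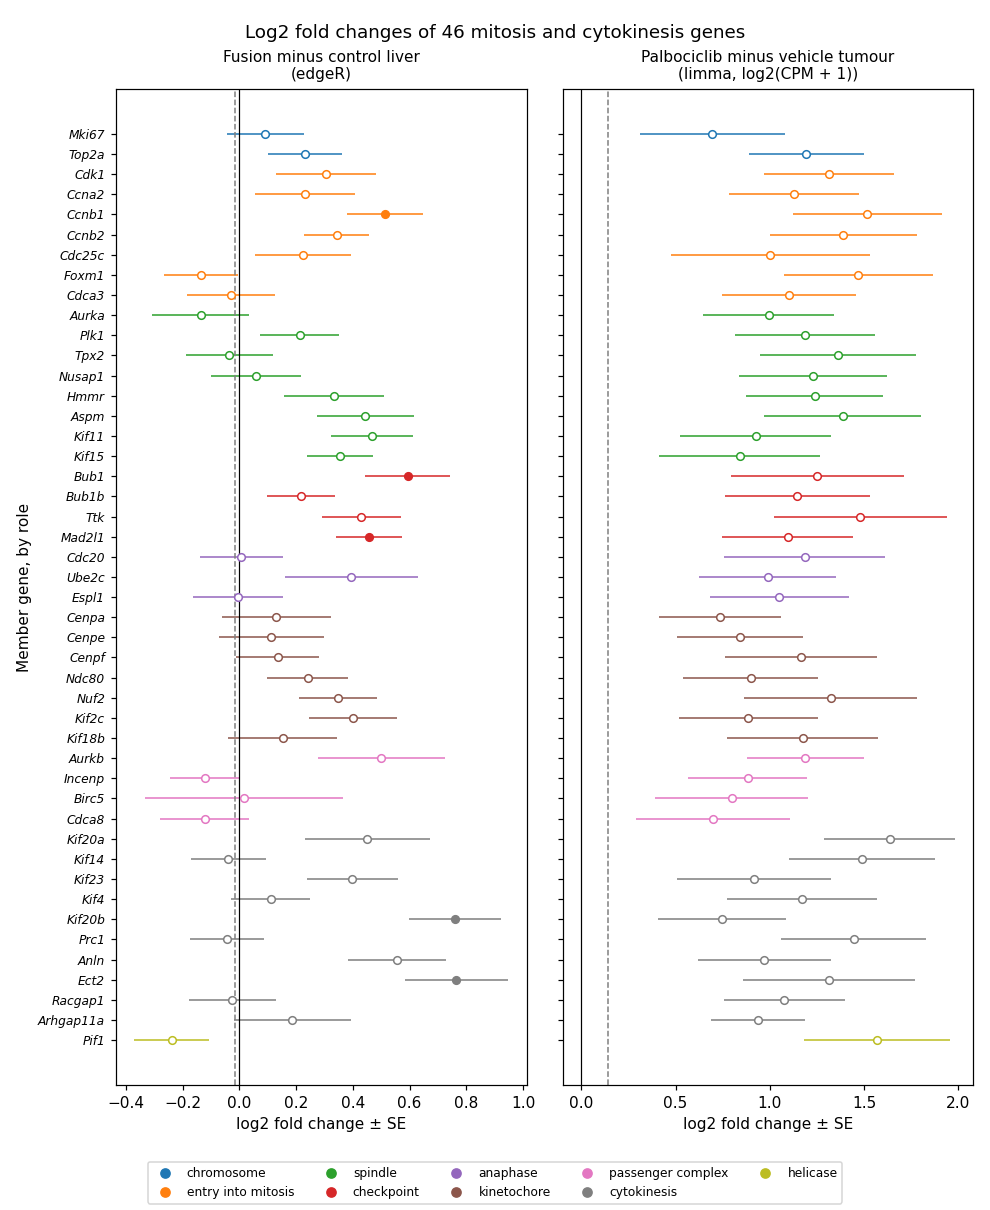
Log2 fold change with its standard error (x axis) of each of the 46 genes (y axis, ordered and coloured by role), for fusion minus control liver (left, edgeR, 5 and 4 livers) and palbociclib minus vehicle tumours (right, limma on log2(CPM + 1), 5 and 5 tumours). Filled circles passed an adjusted p under 0.05 and open circles did not, and the dashed grey line is the median of all genes tested. The left panel has 5 filled circles and values on both sides of 0, and the right panel has 0 filled circles and all 46 values above 0.

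Values below are TMM-scaled CPM for controls 1 to 5 and then fusions 6 to 9. Kif20b encodes a kinesin of the late spindle and midbody that acts in abscission. It stood at 5.41, 7.53, 4.89, 7.60 and 7.11 CPM in controls and at 11.5, 11.5, 9.96 and 10.8 CPM in fusion livers. All 4 fusion livers lay well above the highest control, with little spread among themselves. The log2 fold change was 0.76 ± 0.16 (SE; adjusted p = 0.0118 in edgeR). Ect2, the exchange factor that activates RhoA at the cleavage furrow, was at 12.4, 11.6, 10.2, 13.8 and 15.2 CPM in controls and at 29.2, 19.8, 20.9 and 15.8 CPM in fusion livers. Fusion 6 was the highest and fusion 9 lay just above control 5. Its log2 fold change was 0.76 ± 0.18 (SE; adjusted p = 0.0196 in edgeR). The other 8 cytokinesis genes did not pass. Anln, the anillin scaffold of the contractile ring, had 14.2 to 23.0 CPM in controls and 20.3 to 31.2 CPM in fusion livers (0.56 ± 0.17 SE, adjusted p = 0.0562 in edgeR). Kif20a and Kif23, kinesins of the central spindle, had log2 fold changes of 0.45 and 0.40. Arhgap11a, a GTPase-activating protein for RhoA, was at 0.19 and the chromokinesin Kif4 at 0.11. Kif14, Prc1, which bundles the midzone microtubules, and Racgap1, the partner of Kif23 in centralspindlin, were at -0.04, -0.04 and -0.02.

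The spindle checkpoint genes had the highest median of the 9 roles, 0.44, with 4 of 4 positive. Bub1, the kinase that recruits the checkpoint to kinetochores, was at 13.0, 13.2, 14.3, 17.8 and 16.3 CPM in controls and at 26.3, 22.0, 24.6 and 17.4 CPM in fusion livers. Control 4 lay above fusion 9, and the other 3 fusion livers lay above all controls. It rose by 0.59 ± 0.15 on the log2 scale (SE; adjusted p = 0.0245 in edgeR). Mad2l1 encodes Mad2, which binds and holds back Cdc20. It was at 31.1, 31.0, 27.8, 35.5 and 31.9 CPM in controls and at 40.9, 39.9, 51.8 and 40.2 CPM in fusion livers. Fusions 6, 7 and 9 lay within 1 CPM of each other, and fusion 8 stood above them. It rose by 0.46 ± 0.12 (log2, SE; adjusted p = 0.0267 in edgeR). Ttk, the kinase at the head of the checkpoint, was at 8.14 to 10.7 CPM and 10.1 to 13.9 CPM (0.43 ± 0.14 SE, adjusted p = 0.0652 in edgeR), and Bub1b, which with Mad2 makes up the inhibitor of Cdc20, had a log2 fold change of 0.22.

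Among the 7 genes of entry into mitosis, Ccnb1 rose and the other 6 did not pass. Ccnb1 encodes cyclin B1, the main partner of Cdk1. It was at 36.6, 38.3, 35.3, 46.4 and 45.0 CPM in controls and at 68.1, 56.1, 58.9 and 47.3 CPM in fusion livers. Fusion 9 lay less than 1 CPM above control 4, and fusion 6 was highest. The rise was 0.51 ± 0.13 (log2, SE; adjusted p = 0.0280 in edgeR). Ccnb2, cyclin B2, was at 87.2, 79.5, 73.6, 91.9 and 93.0 CPM in controls and at 119.6, 110.4, 102 and 99.5 CPM in fusion livers. The groups did not overlap, but its log2 fold change of 0.34 ± 0.12 (SE) had an adjusted p of 0.0727 in edgeR. Cdk1, the mitotic kinase, was at 150.2, 153, 105, 122 and 110.4 CPM in controls and at 128, 138, 209 and 158 CPM in fusion livers. Its groups overlapped widely and its log2 fold change was 0.31 ± 0.18 (SE; adjusted p = 0.273 in edgeR). Ccna2, cyclin A2, and Cdc25c, a phosphatase that activates Cdk1, both had log2 fold changes of 0.23. Foxm1, a transcription factor of G2 and M phase, was at 24.1, 21.6, 17.4, 17.7 and 21.0 CPM in controls and at 21.0, 18.2, 16.2 and 18.5 CPM in fusion livers. Its fold change was slightly negative, -0.14 ± 0.13 (log2, SE), as was that of Cdca3, -0.03.

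Of the 8 spindle genes 0 passed, with a median log2 fold change of 0.27. Kif11, the motor that pushes the spindle poles apart, was nearest. It was at 51.9, 49.9, 43.2, 59.96 and 59.6 CPM in controls and at 87.6, 70.8, 76.03 and 58.0 CPM in fusion livers. Fusion 9 lay within the controls and the other 3 above them (0.47 ± 0.14 SE on the log2 scale, adjusted p = 0.0540 in edgeR). Kif15, a motor that can stand in for Kif11, was at 34.3, 35.8, 31.6, 33.2 and 31.7 CPM in controls and at 38.7, 36.9, 51.4 and 43.3 CPM in fusion livers. These groups did not overlap, and the log2 fold change was 0.35 ± 0.12 (SE; adjusted p = 0.0663 in edgeR). Aspm, which gathers microtubules at the poles, had a log2 fold change of 0.44, the spindle protein Hmmr 0.33 and the kinase Plk1 0.21. Nusap1, which bundles microtubules near chromosomes, was at 0.06, and Tpx2 and the kinase Aurka that it activates were at -0.04 and -0.14.

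The kinetochore and passenger genes divided. All 7 genes listed under the kinetochore role had positive log2 fold changes, with a median of 0.15 and 0 past the threshold. Kif2c, which takes down wrongly attached microtubules, was at 9.99, 11.99, 12.6, 13.3 and 13.7 CPM in controls and at 21.0, 15.5, 14.9 and 13.3 CPM in fusion livers (0.40 ± 0.16 SE on the log2 scale). Nuf2, of the Ndc80 complex that grips microtubules, was at 25.9, 29.4, 22.4, 25.5 and 25.3 CPM in controls and at 40.0, 34.4, 29.4 and 26.3 CPM in fusion livers (0.35 ± 0.14 SE). In both genes fusion 6 was highest and fusion 9 lay among the controls. Ndc80, the partner of Nuf2, was at 0.24. Kif18b, a kinesin of astral microtubules that was listed under this role, was at 0.15. The large kinetochore protein Cenpf was at 0.13, the centromeric histone Cenpa at 0.13 and the kinesin Cenpe at 0.11. The chromosomal passenger complex joins the kinase Aurkb to Incenp, Birc5 and Cdca8. Aurkb was at 14.8, 16.5, 23.7, 28.2 and 27.1 CPM in controls and at 42.1, 32.6, 27.2 and 23.3 CPM in fusion livers (0.50 ± 0.22 SE on the log2 scale, adjusted p = 0.162 in edgeR). Incenp was at 101, 96.9, 72.9, 81.9 and 80.3 CPM in controls and at 83.5, 77.6, 77.3 and 79.4 CPM in fusion livers (-0.12 ± 0.12 SE). Both genes overlapped between groups, and the 4 subunits of this complex had log2 fold changes of both signs, with Birc5 at 0.02 and Cdca8 at -0.12.

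Of the remaining members none passed. Mki67, the proliferation marker that coats mitotic chromosomes, was at 606, 623, 454, 604 and 624 CPM in controls and at 663, 597, 635 and 585 CPM in fusion livers. Apart from the low control 3, these values overlapped closely, and the log2 fold change was 0.09 ± 0.14 (SE; adjusted p = 0.698 in edgeR). Top2a, the topoisomerase that untangles sister chromatids, was at 219, 185, 178, 215 and 212 CPM in controls and at 270, 254, 216 and 206 CPM in fusion livers (0.23 ± 0.13 SE). Ube2c, the ubiquitin-conjugating enzyme of the anaphase-promoting complex, was at 364, 419, 234, 289 and 292 CPM in controls and at 317, 305, 619.9 and 436 CPM in fusion livers (0.39 ± 0.23 SE). The groups overlapped, and fusion 8 lay far above the rest. Cdc20, the activator of that complex, was at 113, 109, 75.6, 82.9 and 78.9 CPM in controls and at 93.0, 83.6, 95.0 and 98.0 CPM in fusion livers, with a log2 fold change of 0.01 ± 0.15 (SE). Espl1, the separase that cuts cohesin, was at -0.01. Pif1, a DNA helicase, was at 15.4, 15.5, 11.9, 12.8 and 13.4 CPM in controls and at 13.5, 11.2, 10.7 and 11.02 CPM in fusion livers, the lowest fold change of the members (-0.24 ± 0.13 SE, adjusted p = 0.257 in edgeR).

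**Figure D2:**
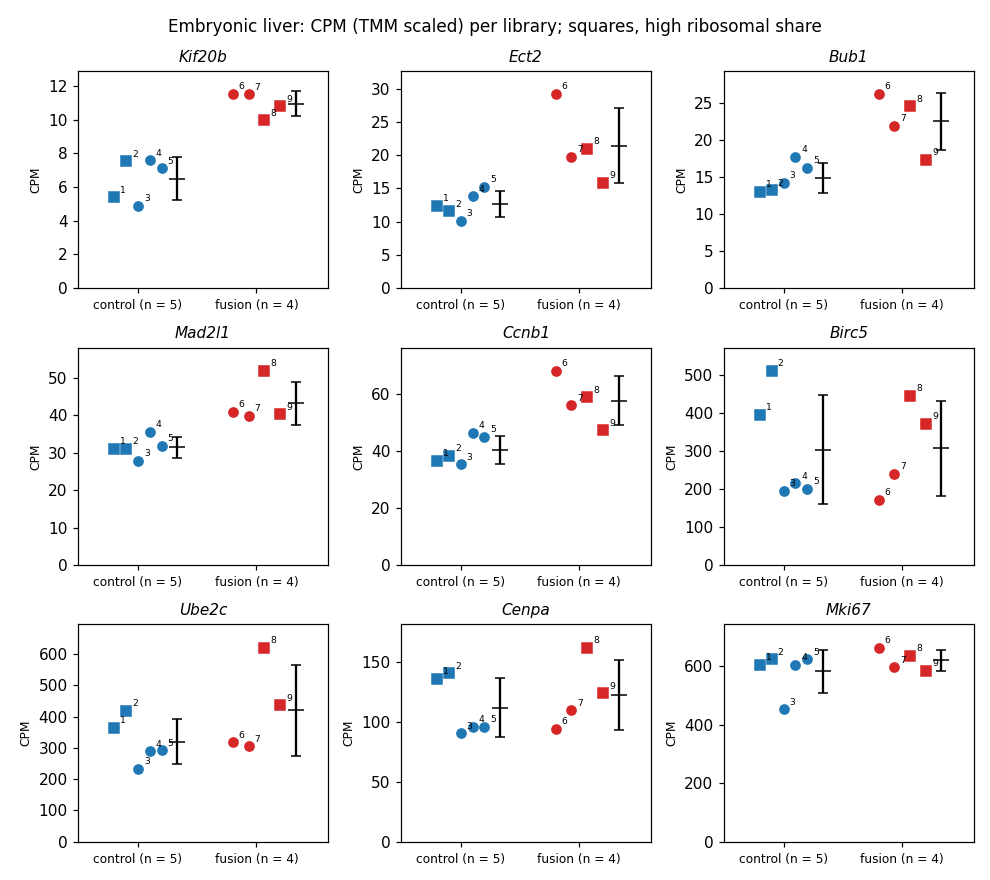
CPM (TMM scaled, y axis from 0) in each of 5 control and 4 fusion livers (x axis, numbered as in the text) for the 5 members that rose, for Birc5, Ube2c and Cenpa, and for Mki67. Squares are the 4 libraries of high ribosomal share and circles the other 5, and black bars are the group mean ± SD. Kif20b, Ect2, Mad2l1 and Ccnb1 do not overlap between genotypes, while Birc5 separates squares (372 to 512 CPM) from circles (171 to 239.9 CPM) in both genotypes.

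Many members also differed between the libraries of high and of low ribosomal share, a split read from the data and not from the labels. Birc5, the survivin subunit of the passenger complex, was at 372 to 512 CPM in the 4 libraries of high share and at 171 to 239.9 CPM in the other 5. Ube2c was at 364 to 619.9 CPM against 234 to 317 CPM, and Cenpa at 124 to 162 CPM against 90.7 to 109.9 CPM. In 8 members (Cdk1, Ccna2, Cdc20, Ube2c, Espl1, Cenpa, Birc5 and Racgap1) all 4 libraries of high share lay above all 5 others, and in 0 members all 4 lay below. Among the controls alone, controls 1 and 2 lay above controls 3 to 5 in 22 members and below them in 8: Cdc25c, Bub1, Kif2c, Kif18b, Aurkb, Kif20a, Kif23 and Anln. The shares over all genes tested were not counted for either contrast. Whether these separations are particular to the members was therefore not tested. The erythroid markers moved the same way as the 22 members. The summed level of 12 listed erythroid genes was 6748, 6512, 3880, 4920 and 5253 CPM in controls and 4675, 4705, 5830 and 5444 CPM in fusion livers, highest within each genotype in the libraries of high share (median log2 fold change of the 12 by genotype 0.16, 0 called). Among the controls, Xist followed the same split. It was at 473 and 417 CPM in controls 1 and 2 and at 0.235 to 0.436 CPM in controls 3 to 5. The split and sex therefore cannot be told apart among the controls. The part of sex, blood cell precursors, RNA quality and the making of the libraries in this split was not tested.

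Markers of other cells in the liver were compared in the same way. The 11 listed macrophage genes summed to 1374 to 1618 CPM in controls and to 1213 to 1304 CPM in fusion livers, without overlap. Their median log2 fold change was -0.24, with 3 of 11 positive and 0 called. Fibroblast genes summed to 255 to 454 CPM in controls and 219 to 337 CPM in fusion livers (median -0.32), and 3 of 9 fell. Of 14 hepatocyte genes 1 rose and 2 fell, with a median of -0.31 and 2 positive, while their sums overlapped (186013 to 230415 CPM and 194804 to 233916 CPM). Endothelial genes summed to 358 to 399.8 CPM and 312 to 416 CPM, with 0 of 9 called. The part of these differences in the levels of the 46 genes was not tested.

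Within each side of the split, all 5 rises kept their direction and 4 of them passed on both sides. These fits reuse the livers that gave the 5 calls, so they are not independent support. In Kif20b, Ect2, Mad2l1 and Ccnb1 the genotypes did not overlap, so their direction could hardly change within a side. Within the 4 libraries of high share (2 against 2) the log2 fold changes were 0.74 for Kif20b, 0.62 for Ect2, 0.69 for Bub1, 0.58 for Mad2l1 and 0.51 for Ccnb1, all with adjusted p under 0.05 in edgeR. Within the 5 others (3 against 2) they were 0.81, 0.92, 0.59, 0.35 and 0.56, and Mad2l1 missed the threshold (adjusted p = 0.0672 in edgeR). The members as a whole differed between the sides. Within high share 26 of 46 fold changes were positive, with a median of 0.074, and 8 members were called higher and Aurka and Cdca8 lower, where 10.2% of all genes were called higher and 9.8% lower. Within low share 44 were positive, with a median of 0.31, and 16 members (34.8%) were called, all higher, where 10.6% of all genes were. Prkaca also differed, at 114 and 72.4 CPM in fusions 6 and 7 of low share. It was at 53.8 and 52.0 CPM in fusions 8 and 9 of high share. The difference between the sides, and the part of Prkaca in it, was not tested. In the 5 libraries of low share the controls had little Xist and both fusion livers had much, so that genotype and sex cannot be told apart there. With the split as a covariate 16 members were called, all higher, against 5 without it: Ccnb1, Ccnb2, Aspm, Kif11, Kif15, Bub1, Ttk, Mad2l1, Nuf2, Kif2c, Aurkb, Kif20a, Kif23, Kif20b, Anln and Ect2. The covariate also raised the calls over all genes, to 16.1% higher and 32.6% in either direction, against 34.8% of the members. With the Xist level as a covariate 4 were called (8.7% of members, where 5.38% of all genes were called higher), and Ccnb1 was lost (0.51, adjusted p = 0.0519 in edgeR). Single livers mattered too. Control 3 was lowest of the 9 livers for 31 of the 46 members and fusion 6 highest for 21. Without control 3 only Kif20b remained called, where 3.51% of all genes were called higher, and the median of the members was 0.17. Over the 9 fits that each left out 1 liver, Kif20b was called in 9, Ect2 in 8, Mad2l1 in 7, and Bub1 and Ccnb1 in 4 each.

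**Figure D3:**
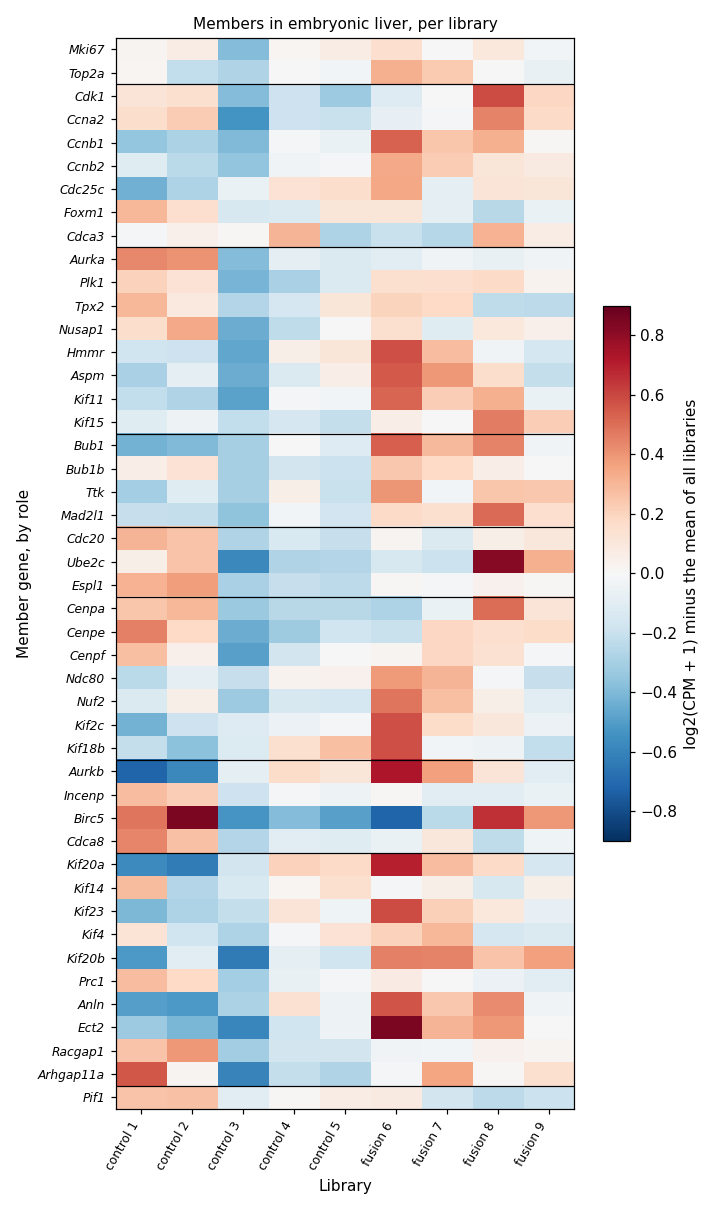
Level of each of the 46 genes (y axis, by role) in each embryonic liver (x axis), as log2(CPM + 1) minus the gene's mean over the 9 libraries, with red above and blue below that mean. The outer columns (controls 1 and 2 on the left, fusions 8 and 9 on the right) are the libraries of high ribosomal share. Control 3 is blue in most rows, Aurkb, Kif20a and Anln are blue in controls 1 and 2, and Birc5 is red in all 4 outer columns.

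Averaged over the 46 genes, log2(CPM + 1) was 5.58, 5.57, 5.26, 5.52 and 5.51 in controls and 5.80, 5.69, 5.74 and 5.60 in fusion livers. Each fusion liver was above each control by this mean, by little in the case of fusion 9. The summed level of the 46 genes, in which the abundant ones weigh most, did not separate the genotypes. It was 4053, 4159.97, 2836, 3428 and 3418 CPM in controls and 3872, 3758, 4488 and 3907 CPM in fusion livers, so that controls 1 and 2 lay above fusions 6, 7 and 9.

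The comparison of palbociclib with vehicle tumours asks how the members respond to an inhibitor of CDK4 and CDK6. All 46 members had a higher mean in palbociclib tumours, and 0 of them passed limma's test with adjustment over all 12829 genes tested. Of all genes tested 0% were called higher, and the smallest adjusted p of any gene was 0.953 in limma. The median log2 fold change of the members was 1.16 on the log2(CPM + 1) scale, against 0.14 for all genes, of which 68.8% were positive. At an unadjusted p under 0.05 there were 41 members (89.1%), where 3.73% of all genes tested were higher at that level. In 7 members (15.2%) every palbociclib tumour lay above every vehicle tumour: Top2a, Cdk1, Aurkb, Kif20a, Kif14, Arhgap11a and Pif1. That separation held for 0.834% of all genes tested. The members vary together from tumour to tumour, so these counts are not independent observations.

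Values below are deposited CPM for vehicle 1 to 5 and then palbociclib 1 to 5. Kif20a, the kinesin that carries the passenger complex to the central spindle, had the largest fold change of the members and the smallest unadjusted p of all genes that were higher. It was at 1.80, 4.70, 8.90, 5.45 and 4.06 CPM in vehicle tumours and at 14.7, 15.7, 28.1, 13.6 and 12.4 CPM in palbociclib tumours. The lowest palbociclib tumour was above the highest vehicle tumour, and palbociclib 3 stood apart at the top. The log2 fold change was 1.64 ± 0.35 (SE). Exons of Kif20a overlap those of Cdc23 on the other strand, and Cdc23 had a log2 fold change of 0.45 ± 0.32 (SE). Kif14, a kinesin of the midbody, was at 1.00, 2.37, 2.66, 0.0808 and 0.677 CPM in vehicle tumours and at 6.05, 5.01, 7.90, 3.92 and 3.22 CPM in palbociclib tumours (1.49 ± 0.39 SE). The values of vehicle 4 and vehicle 5 lie under the level that 3 reads give there, 0.121 and 1.01 CPM. Arhgap11a was at 20.4, 19.1, 17.8, 14.1 and 26.7 CPM in vehicle tumours and at 34.1, 41.4, 53.1, 32.9 and 31.0 CPM in palbociclib tumours, the smallest SE of the cytokinesis genes (0.94 ± 0.25). Its separation depends on the mitochondrial reads of vehicle 1. With CPM taken without mitochondrial genes, vehicle 1 was at 38.2 CPM, above palbociclib 1, 4 and 5 (35.2, 33.8 and 32.7 CPM). The other cytokinesis genes overlapped between treatments. Prc1 had a log2 fold change of 1.44, Ect2 1.31, Kif4 1.17, Racgap1 1.08, Anln 0.97, Kif23 0.92 and Kif20b 0.75, and all 10 had an unadjusted p under 0.05.

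Pif1, which had the lowest fold change of the members in embryos, had the second largest here. It was at 0.886, 6.26, 6.03, 2.87 and 7.44 CPM in vehicle tumours and at 15.3, 10.3, 20.1, 12.6 and 12.8 CPM in palbociclib tumours. The groups did not overlap, and the log2 fold change was 1.57 ± 0.39 (SE). Top2a was at 13.2, 21.7, 21.6, 8.52 and 16.9 CPM in vehicle tumours and at 39.0, 44.5, 56.9, 26.3 and 26.1 CPM in palbociclib tumours, again without overlap (1.19 ± 0.31 SE). Mki67 differed least of the 46. It was at 24.2, 49.1, 65.1, 12.5 and 56.2 CPM in vehicle tumours and at 54.4, 57.8, 99.5, 45.6 and 45.9 CPM in palbociclib tumours. Vehicle 3 lay above all palbociclib tumours but palbociclib 3, and the log2 fold change was 0.69 ± 0.38 (SE), without an unadjusted p under 0.05.

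**Figure D4:**
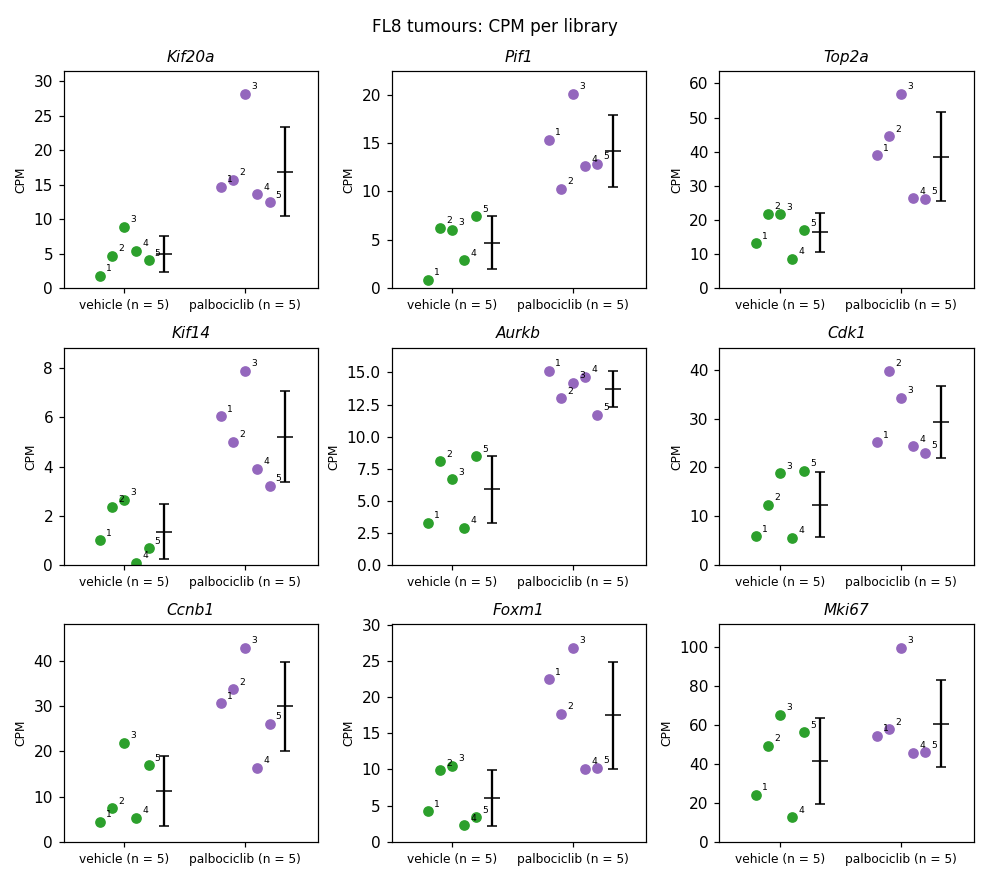
Deposited CPM (y axis from 0) in each of 5 vehicle and 5 palbociclib tumours (x axis, numbered as in the text) for 9 members, with the group mean ± SD as black bars. Kif20a, Pif1, Top2a, Kif14, Aurkb and Cdk1 do not overlap between treatments, Ccnb1, Foxm1 and Mki67 do, and palbociclib 3 is the highest tumour for 7 of the 9 genes, the exceptions being Aurkb and Cdk1.

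Of the 7 genes of entry into mitosis, 6 had an unadjusted p under 0.05, and the median log2 fold change was 1.32. Cdk1 was at 5.85, 12.3, 18.8, 5.53 and 19.3 CPM in vehicle tumours and at 25.1, 39.8, 34.3, 24.3 and 23.1 CPM in palbociclib tumours, without overlap (1.32 ± 0.35 SE). Ccnb1 was at 4.37, 7.45, 22.0, 5.33 and 16.9 CPM and then at 30.6, 33.8, 43.0, 16.4 and 26.1 CPM (1.52 ± 0.39 SE). Foxm1 was at 4.19, 9.92, 10.53, 2.26 and 3.38 CPM and then at 22.5, 17.7, 26.8, 10.1 and 10.3 CPM (1.47 ± 0.40 SE). In both genes palbociclib 4 lay within the vehicle range and palbociclib 1 to 3 above it. Ccnb2 had a log2 fold change of 1.39, Ccna2 1.13 and Cdca3 1.10. Cdc25c was the member of this role that missed, at 0.236 to 9.57 CPM in vehicle tumours and 4.54 to 10.4 CPM in palbociclib tumours (1.00 ± 0.53 SE).

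Spindle, checkpoint and anaphase genes were alike in size. The 8 spindle genes had a median log2 fold change of 1.21, with 7 at an unadjusted p under 0.05. Hmmr was at 2.48, 4.65, 8.37, 4.97 and 3.72 CPM in vehicle tumours and at 13.0, 13.1, 23.8, 5.86 and 10.3 CPM in palbociclib tumours (1.24 ± 0.36 SE). Aspm was at 3.60, 7.69, 15.5, 6.46 and 18.3 CPM and then at 31.6, 23.5, 51.5, 20.4 and 11.9 CPM (1.39 ± 0.42 SE). In each of these genes 1 palbociclib tumour lay within the vehicle range. Tpx2 had a log2 fold change of 1.36, Nusap1 1.23, Plk1 1.19, Aurka 0.99, Kif11 0.93 and Kif15 0.84, and Kif15 was the member that missed. Ttk, of the checkpoint, was at 1.30, 5.17, 5.32, 2.30 and 2.71 CPM in vehicle tumours and at 6.96, 10.0, 33.8, 3.73 and 11.8 CPM in palbociclib tumours (1.48 ± 0.46 SE). Mad2l1 was at 5.29, 10.9, 18.7, 10.0 and 18.6 CPM and then at 21.5, 26.6, 44.8, 15.8 and 28.6 CPM (1.09 ± 0.35 SE). Palbociclib 4 lay within the vehicle range in both, and Ttk in palbociclib 3 was far above every other tumour. Bub1 and Bub1b were at 1.25 and 1.15. Espl1 was at 1.83, 8.21, 10.7, 3.72 and 8.80 CPM in vehicle tumours and at 14.2, 14.2, 14.9, 9.48 and 13.0 CPM in palbociclib tumours (1.05 ± 0.37 SE). Cdc20 was at 4.96, 7.97, 15.4, 4.93 and 31.5 CPM and then at 16.7, 26.6, 33.6, 15.5 and 35.8 CPM (1.18 ± 0.43 SE), so that vehicle 5 lay within the palbociclib range. Ube2c was at 0.99.

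All 7 genes listed under the kinetochore role, Kif18b among them, had an unadjusted p under 0.05, with a median log2 fold change of 0.90. Kif18b was at 1.54, 2.75, 3.79, 1.49 and 0 CPM in vehicle tumours and at 3.34, 5.74, 5.92, 5.45 and 4.103 CPM in palbociclib tumours (1.17 ± 0.40 SE). The 0 of vehicle 5 allows a level of up to 1.01 CPM at its depth, counting error only. Cenpf was at 2.81, 8.78, 12.6, 4.08 and 14.2 CPM and then at 18.3, 17.5, 34.2, 14.3 and 10.54 CPM (1.17 ± 0.40 SE). Nuf2 was at 1.32, Ndc80 at 0.90, Kif2c at 0.89, Cenpe at 0.84 and Cenpa at 0.74. Of the passenger complex, Aurkb was at 3.31, 8.07, 6.67, 2.91 and 8.46 CPM in vehicle tumours and at 15.1, 13.0, 14.2, 14.6 and 11.7 CPM in palbociclib tumours. This was a separation with little spread among the treated tumours (1.19 ± 0.31 SE). Incenp was at 10.8, 20.02, 19.5, 5.29 and 11.5 CPM and then at 18.6, 24.2, 25.7, 24.6 and 24.2 CPM (0.88 ± 0.32 SE). Palbociclib 1 was the only treated tumour within the vehicle range of Incenp. Birc5 and Cdca8, at 0.80 and 0.70, had no unadjusted p under 0.05.

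**Figure D5:**
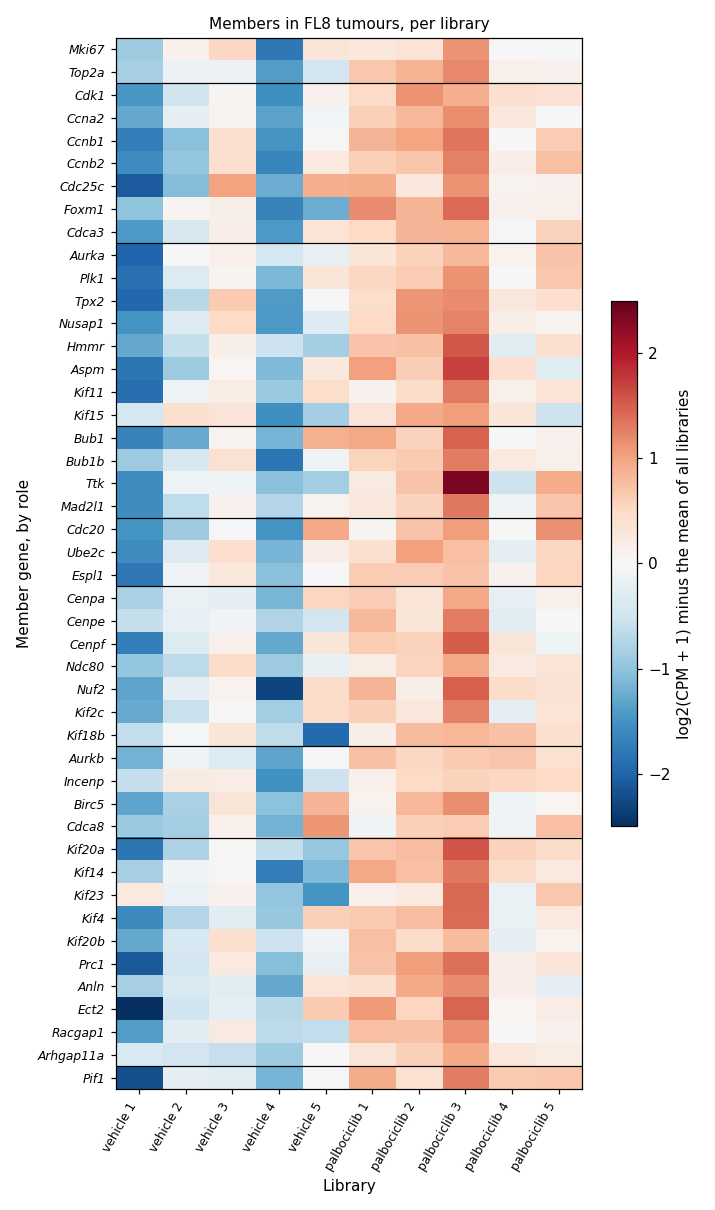
Level of each of the 46 genes (y axis, by role) in each FL8 tumour (x axis), as log2(CPM + 1) minus the gene's mean over the 10 libraries, with red above and blue below that mean. Vehicle 1 and vehicle 4 are blue in nearly every row, vehicle 3 and vehicle 5 are mixed, and palbociclib 3 is the reddest column.

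The tumours differed within a treatment as well as between them. The mean log2(CPM + 1) of the 46 genes was 2.28, 3.21, 3.75, 2.45 and 3.57 in vehicle tumours and 4.17, 4.28, 4.80, 3.74 and 3.93 in palbociclib tumours. Vehicle 3 lay just above palbociclib 4 by this mean, and vehicle 1 and vehicle 4 lay far below all others on the deposited CPM. Vehicle 1 was the lowest tumour for 26 members and vehicle 4 for 18, and palbociclib 3 was the highest for 41. The mitochondrial reads of vehicle 1 lower the CPM of all its other genes. Without mitochondrial genes the mean of vehicle 1 was 3.01, nearer the 3.23 of vehicle 2, and that of vehicle 4 was 2.49. With CPM taken without mitochondrial genes, vehicle 4 was lowest for 30 members and vehicle 1 for 12, the median of the members was 1.04 and that of all genes 0.01. TMM factors gave 1.02 and 0.00. Under both scalings all 46 members stayed positive, and Arhgap11a no longer separated, which left 6 genes. Without vehicle 1 and vehicle 5 together the median of the members was 1.07, 41 had an unadjusted p under 0.05, and the smallest adjusted p of a member was 0.154 in limma. Kif20a passed in DESeq2 on the recovered reads (1.67, adjusted p = 0.0198), the 1 member among 7 genes called there (3 higher, 0.0209% of those tested), while edgeR on those reads called 0 genes and had 32 members at an unadjusted p under 0.05.

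Markers of other cells also differed between tumours. The summed level of 17 listed erythroid genes was 16951, 36775, 96738, 10576 and 1347 CPM in vehicle tumours and 1780, 8504, 3500, 7940 and 6392 CPM in palbociclib tumours, and 1 of the 11 that could be tested had a positive fold change. The 11 macrophage genes summed to 2371 CPM in vehicle 1 and to 115 to 430.4 CPM in the other 9 tumours. Fibroblast genes summed to 46.7 to 254 CPM in vehicle and 58.2 to 209 CPM in palbociclib tumours, endothelial genes to 158 to 499 and 174 to 245 CPM, and muscle genes to 7.10 to 34.2 and 2.96 to 30.6 CPM. Line and host are both mouse, so their reads cannot be told apart. The part of these differences in the levels of the 46 genes was not tested.

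Set side by side, the 2 experiments placed some members differently. Kif20b had log2 fold changes of 0.76 in fusion livers and 0.75 in palbociclib tumours, and Ect2 of 0.76 and 1.31. Foxm1 was at -0.14 and 1.47, Pif1 at -0.24 and 1.57, Kif14 at -0.04 and 1.49, and Prc1 at -0.04 and 1.44. The tables were normalized separately and no test was made between them.

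Neighbours of the members in the cell cycle were counted from lists chosen by function. Of 28 other kinetochore genes 2 rose and 0 fell in fusion livers (median log2 fold change 0.17), with Cenpi, of the inner kinetochore, at 6.76 ± 0.576 CPM in controls and 11.04 ± 1.06 CPM in fusion livers (SD, n = 5 and n = 4; 0.71, adjusted p = 0.00512 in edgeR). Of 18 condensin and cohesin genes 3 rose and 0 fell (median 0.31), with the condensin subunit Smc2 at 0.54 (adjusted p = 0.0143 in edgeR). Of 17 genes of the anaphase-promoting complex and its regulators 1 rose, the subunit Cdc27 (0.41, adjusted p = 0.0365 in edgeR), and of 32 other mitotic regulators 3 rose and 1 fell, with the kinase Pbk at 0.37 (adjusted p = 0.0345 in edgeR). Of 36 DNA replication genes 2 rose, with the helicase subunit Mcm4 at 0.52 (adjusted p = 0.0165 in edgeR). Over all genes tested, 5.99% rose. The median of the members in fusion livers was 0.22. The medians of condensin and cohesin genes (0.31) and of mitotic regulators (0.27) lay above it. Those of other kinetochore genes (0.17), replication genes (0.14) and genes of the anaphase-promoting complex (0.06) lay below it. In tumours 0 genes of these lists passed in limma. Fold changes were positive for 26 of 27 other kinetochore genes tested (median 0.66, 9 at an unadjusted p under 0.05), for 17 of 18 condensin and cohesin genes (0.38, 4), for 15 of 17 genes of the anaphase-promoting complex (0.21, 1), for 30 of 31 mitotic regulators (0.68, 11) and for 31 of 34 replication genes (0.55, 11). The medians of all 5 lists in tumours lay below the 1.16 of the members. The smallest unadjusted p in each list belonged to Zwilch (1.34), Sgo1 (0.91), Ube2s (0.65), Ckap2l (1.42) and Rrm2 (0.97).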

How the data were processed

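RNA was measured by sequencing of 9 embryonic livers (polyA libraries) and 10 FL8 tumours. The embryo table holds counts per gene as deposited by the authors, and 9 further columns of normalized values in it were not used. The tumour files hold CPM per Ensembl gene as deposited by the authors, and 100% of the values came out as whole multiples (tolerance 0.01) of what 1 read is worth. Per the submitters' processing notes, the build was mm10, the tools named for the embryos are STAR 2.5.1b and DESeq2, and those for the tumours are cutadapt 2.10, HISAT2, featureCounts, DESeq2 and R 4.1.2. Annotation, strand setting and filters are not given in the sources used here. Exons of 12 of the 46 members overlap those of another gene (10 on the other strand), and their reads may be shared. The embryo table lists no gene with a count sum under 47, and several globin genes are not analysed here.

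In R 4.3.3, embryo counts were tested with edgeR 4.0.16 (quasi-likelihood test, TMM factors, filterByExpr, SE from the fold change and F). Tumour CPM were tested with limma 3.58.1 (trend) on log2(CPM + 1), leaving out genes whose mean was under 1 CPM. This scale understates changes of low genes. P-values were adjusted by Benjamini-Hochberg over all genes tested, with a threshold of 0.05. DESeq2 1.42.0 served as an alternative. Alternatives covered size factors, filters, pseudocount, test, covariates and left-out libraries. Tumour identifiers were given symbols from a gene table (17469 of 17606 matched). The scripts were tested on simulated data. Replicates of a group differed beyond sampling noise (lowest chi-square per degree of freedom 13.0 over 36 pairs), so none was counted as a duplicate. The labels do not say which embryos share a litter, so p-values measure the spread between these samples. The lowest level that can be read is that of 3 counts, 0.0658 to 0.392 CPM in embryos and 0.0695 to 1.01 CPM in tumours, for counting error only.

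Named with values were Mki67, Top2a, Cdk1, Ccnb1, Foxm1, every member past the threshold, and the 2 members of each role with the smallest p, and, of the other lists, the gene with the smallest p. Outside this rule, values or ranges of Anln, Ttk, Birc5 and Cenpa in embryos and of Arhgap11a and Cdc25c in tumours are given. These were chosen after their values were seen, Arhgap11a because its groups did not overlap. The members, the roles and the lists (other kinetochore, condensin and cohesin, anaphase-promoting complex, mitotic regulators, DNA replication, G1 and Rb pathway, erythroid, hepatocyte, macrophage, endothelium, fibroblast, skeletal muscle) were chosen with earlier results of these data known. In embryos 0 of 3 muscle genes tested were called.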

Additional observations from a re-analysis of the deposited data

Results flagged for a closer look

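Each group of values was screened for a library far from the rest of its group, and 9 of 92 groups held one, where chance gives about 1 in 20, or 4.6. Values of different members are not independent.

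In embryonic liver, fusion 8 had 51.8 CPM of Mad2l1 against 39.9 to 40.9 CPM in the other fusion livers. Control 3 had 454 CPM of Mki67 against 604 to 624 CPM in the other controls, and a mean log2(CPM + 1) over the 46 members of 5.26 against 5.51 to 5.58. Fusion 6 had 45591301 counts against 13527381 to 16422822 in the other fusion libraries.

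In tumours, palbociclib 3 had 28.1 CPM of Kif20a against 12.4 to 15.7 CPM in the other palbociclib tumours, 99.5 CPM of Mki67 against 45.6 to 57.8 CPM, and 33.8 CPM of Ttk against 3.73 to 11.8 CPM. Palbociclib 1 had 18.6 CPM of Incenp against 24.2 to 25.7 CPM. The mitochondrial share of reads was 46.6% in vehicle 1 and 1.24% to 4.12% in vehicle 2 to 5.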

How the results depend on the processing

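Of 46 members, 5 were called in embryos in edgeR. The fit of the report called 10.9% of members, all higher, and 12.8% of all genes in either direction (5.99% higher and 6.81% lower). The shares of all genes that follow also count both directions. The members called were all higher in each setting except within the libraries of high ribosomal share. The count was 6 with DESeq2 size factors (13%, all genes 12.8%) and 6 without a filter on low counts (13%, all genes 13%). It was 10 in DESeq2 (21.7%, all genes 18.3%) and 16 with the library split as a covariate (34.8%, all genes 32.6%). Within the libraries of high ribosomal share it was 10 (21.7%, all genes 20%), with 8 higher, and Aurka and Cdca8 lower. Within those of low share it was 16 (34.8%, all genes 21.8%, with 10.6% of all genes higher). With the Xist level as a covariate it was 4 (8.7%, all genes 11.7%). When 1 liver was left out it was 1 to 8. It was 1 without control 3 (2.17%, all genes 7.35%) and 2 without fusion 8 (4.35%, all genes 7.33%). It was 3 without control 1, fusion 6 or fusion 7 (6.52%, all genes 9.37%, 8.74% and 8.23%). Without fusion 9 it was 8 (17.4%, all genes 11.7%). The median log2 fold change of the members, 0.22, was 0.074 within the libraries of high share, 0.17 to 0.27 when 1 liver was left out, and 0.18 to 0.31 otherwise. Cdc20, at 0.01, turned negative with the split as a covariate (-0.00509), within high share (-0.20), with Xist as a covariate (-0.046) and when 1 liver was left out (-0.038 without control 3, the lowest, to 0.10, and also without controls 4 and 5 and fusions 8 and 9). Mki67 turned to -0.00102 within high share, and within low share Foxm1 turned to 0.072 and Incenp to 0.040. Of 336 values of members named in embryos, 284 kept direction and side of the threshold, 15 were no longer past it, 26 were newly past it and 11, of 4 genes, changed sign. In tumours 0 members were called under each setting except DESeq2 on recovered reads (1, Kif20a), and 371 of 372 values of named members kept direction and side. The median of the members, 1.16, was 0.94 to 1.30 when 1 tumour was left out, lowest without vehicle 1, and 1.02 to 1.29 otherwise, and all 46 stayed positive in these fits. At a mean of at least 10 CPM, 28 members could be tested. Replicate numbers are shared between treatments, but same-numbered tumours did not deviate together (correlations of -0.32 to 0.00223 over 5 pairs). With the replicate block 0 members were called and the median was 1.16. No paired analysis was possible in embryos because their numbers are not shared between genotypes. Depth limits the low members of vehicle 5, and arms of 2 or 3 livers limit the fits within the library split.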

Other observations

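The genes of the G1 and Rb pathway, on which palbociclib acts, lie upstream of the members. Of 17 such genes 3 rose and 1 fell in fusion livers, with a median log2 fold change of 0.06. The gene that fell, and the one with the smallest p, was Cdkn1a, which encodes the CDK inhibitor p21. It was at 62.4 ± 8.54 CPM in controls (SD, n = 5) and 31.2 ± 6.49 CPM in fusion livers (SD, n = 4), a fall of -1.003 on the log2 scale (adjusted p = 0.00267 in edgeR). The highest fusion liver, at 37.3 CPM, lay below the lowest control, at 52.7 CPM. In tumours 0 of the 17 passed in limma and 2 had an unadjusted p under 0.05, with 12 positive and a median of 0.24. Ccnd1, the cyclin partner of CDK4 and CDK6, had the smallest p, at 72.9 ± 28.8 CPM in vehicle tumours and 128 ± 33.5 CPM in palbociclib tumours (SD, n = 5 each; log2 fold change 0.87, adjusted p = 0.953 in limma).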
